A study of Mus musculus with 6 samples.

Results

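On the array, 22 probe sets read gene segments or constant genes of the immunoglobulin and T cell receptor loci, out of 34760 in all. They were chosen by name. The platform table had to give a probe set exactly 1 gene symbol, and that symbol had to be a V, D or J segment of an immunoglobulin or T cell receptor locus, or *Ighm*, *Ighd* or *Igkc*. The 22 probe sets name 18 genes. Of these probe sets, 3 belong to the heavy chain locus and all 3 name *Ighm*, the constant gene of IgM. A further 9 name 8 V segments of the kappa light chain locus, and 10 name 9 V segments of the T cell receptor loci. *Ighd* and *Igkc* had 0 probe sets with 1 symbol, and no D or J segment, heavy chain V segment or lambda V segment was named alone. The RefSeq gene table for GRCm38.p6 lists 644 V, D and J segment genes, so the 17 V segments measured here are a small sample, and all 22 symbols were found in that table.

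The arrays hold RNA of plasmacytoid dendritic cells (pDCs) that had been grown from C57BL/6 bone marrow in the dendritic cell cytokine Flt-3L and sorted as B220+ CD11c+ cells. All 3 mice carried the genotype Gfi1f/f; Gfi1bf/f; ERCre, with both repressor genes floxed and a Cre that is active only with tamoxifen. The cells of each mouse were split into a culture left untreated (WT) and another given 1 µM tamoxifen (KO). Each gave 1 array, so n = 3 per group. The WT cultures thus carried the floxed alleles and the Cre, and the effects of tamoxifen itself and of the deletion cannot be told apart. The Cre is not restricted to pDCs, and the study's own genotyping PCR found the deletion in these cultures to be inefficient. The *Gfi1* and *Gfi1b* probe sets summarise whole transcripts and do not check the deletion. The pDC label was checked against 14 marker genes. All 14 lay above the level of sensory receptor genes, which blood cells are not expected to express. So did 10 of 11 B cell, 10 of 10 neutrophil, 9 of 9 macrophage and 8 of 9 fibroblast markers. Of plasma cell, T cell and NK cell markers, 5 of 6, 6 of 10 and 4 of 8 did so. Of all 21640 probe sets with 1 symbol, 12509 did so. Passing this level thus does not set pDCs apart from other cells here. The median intensity of the pDC list ran from 1380 to 3560 over the 6 arrays. That of the macrophage list overlapped it, from 219 to 1941, and those of the other lists reached at most 534. Among the pDC genes, *Siglech*, the pDC surface lectin, had intensities from 2721 to 6917.

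Immunoglobulin and T cell receptor genes are assembled in developing lymphocytes by V(D)J recombination, in which the RAG1 and RAG2 recombinase joins V, D and J segments next to a constant gene. Unrearranged segments can also be transcribed, as germline or sterile transcripts, when their locus opens for recombination. The heavy chain locus rearranges in B cell progenitors before the kappa locus, T cell receptor loci rearrange in the thymus, and pDCs are known for carrying some D to J joins of the heavy chain locus without making antibody. The comparison of KO with WT pDCs asks whether transcripts of these loci changed when the GFI repressors, which hold back *Rag* transcription in B cell progenitors, were targeted.

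The study also measured transcripts of these loci by RT-PCR, with oligonucleotides of its own. They are printed to show the letters that stood for the kappa and heavy chain loci in that assay. The array's measure of the kappa locus is unlike it, with V segments and no probe set for *Igkc* alone. Which transcripts each primer separates is not stated in the sources used here. The study reported that, *Rag* apart, none of the lymphoid genes it tested by RT-PCR rose in tamoxifen-treated pDCs. Its text does not list those genes. The names are the study's, the letters run 5′ to 3′ in lower case, and the RT-PCR results were not analysed here.
K05: gcccaagcgcttccacgcatgcttggag
Ckappa: gtcctgatcagtccaactgttcag
mu0: gccaaggctagcctgaaagattacc
I-mu: ttccaatacccgaagcatttac
CH: atgcagatctctgtttttgcctcc

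Levels were read against a background from 1206 probe sets of olfactory and vomeronasal receptors, the sensory genes just named. Their 95th percentile corresponds to an intensity of 61.7. A probe set was counted as above this level by the mean of its log2 intensities over the 6 arrays, as was done for the receptors. Above it were 10 of the 22, beside 12509 of all 21640 probe sets with 1 symbol. The 10 were 2 of the 3 *Ighm* probe sets, 6 of the 9 kappa probe sets and 2 of the 10 T cell receptor probe sets. By means of linear intensities, a way of counting added after the data were seen, 13 of the 22 lay above the receptors, with *Ighm* probe set 3, *Igkv4-55* and *Igkv8-30* added. Printed intensities are on the linear scale of the deposited table. V segments of a family resemble each other in sequence, some of them closely. A probe set may thus also read transcripts of segments it does not name, and each V segment value is uncertain to that extent. In a bulk sample, fewer cells with a transcript and less of it per cell cannot be told apart.

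*Ighm* encodes the constant region of the mu heavy chain, which is shared by germline and rearranged mu transcripts. Which part of the mu transcripts each of the 3 probe sets reads is not known here, and they may differ in that. The first *Ighm* probe set had intensities of 97.7, 385 and 260 in the WT arrays of mice 1, 2 and 3 and of 98.4, 296 and 260 in their KO arrays. The second had 93.5, 576 and 496 in the WT arrays and 125, 675 and 502 in the KO arrays. The third had 6.58, 271 and 106 in the WT arrays and 11.8, 115 and 198 in the KO arrays. The WT and KO ranges overlapped at each probe set, both arrays of mouse 1 were the lowest at all 3, and the third probe set lay below the background level by its mean of log2 intensities. The log2 difference, KO minus WT, was -0.12 (standard error 0.62, adjusted p = 0.97 from limma) at the first probe set and 0.22 (standard error 0.90, adjusted p = 0.97) at the second. It was 0.17 (standard error 1.62, adjusted p = 0.99) at the third. Only the second was higher in the KO culture of all 3 mice. The standard errors above include the spread between mice. In a limma fit with the mouse as a block, which compares the cultures within each mouse, the standard errors were 0.12, 0.11 and 0.40. The adjusted p-values of that fit were 0.64, 0.43 and 0.86.

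**Figure D1:**
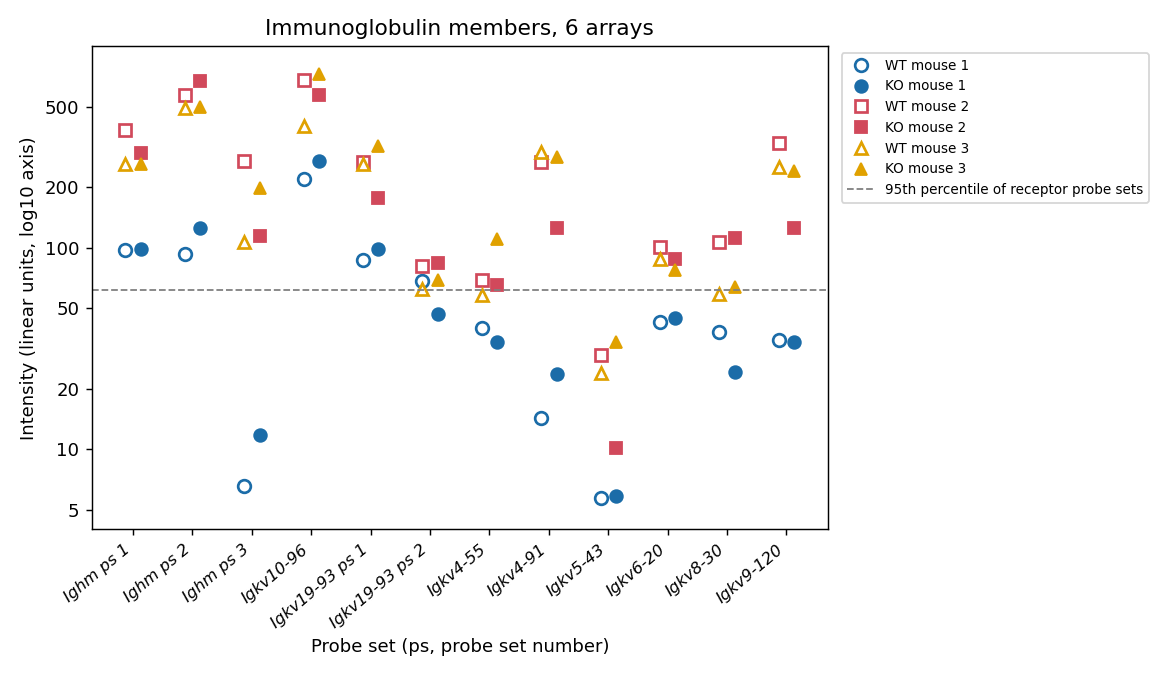
Intensity (log10 axis) of the 12 immunoglobulin probe sets in each of the 6 arrays, with WT and KO marked for each mouse and the background level of 61.7 drawn as a line. Both arrays of mouse 1 lie at the bottom for 11 of the 12 probe sets, while the WT and KO ranges overlap at every probe set.

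The kappa V segments encode the variable part of the light chain. *Igkv10-96* had intensities of 220, 679 and 404 in the WT arrays of mice 1, 2 and 3 and of 269, 574 and 729 in the KO arrays. *Igkv4-91* had 14.3, 267 and 299.9 in the WT arrays and 23.7, 126 and 281 in the KO arrays. *Igkv9-120* had 34.8, 329.7 and 251 in the WT arrays and 33.9, 125 and 241 in the KO arrays. All 3 segments lay above the background level, and in each the mouse 1 arrays stood below the others. For *Igkv4-91* and *Igkv9-120* the mouse 1 arrays were under that level and those of mice 2 and 3 above it. *Igkv9-120* was the kappa probe set that was lower in the KO culture of every mouse, by 0.50 on average on the log2 scale (-0.50, standard error 1.05, adjusted p = 0.92 from limma), with most of that from mouse 2. The differences, KO minus WT, were 0.30 (standard error 0.51, adjusted p = 0.90) for *Igkv10-96* and -0.15 (standard error 1.41, adjusted p = 0.99) for *Igkv4-91*. With the mouse as a block, the standard errors were 0.27 for *Igkv9-120*, 0.20 for *Igkv10-96* and 0.31 for *Igkv4-91*. The adjusted p-values of that limma fit were 0.44, 0.51 and 0.83.

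*Igkv19-93* had a pair of probe sets that disagreed. The first had intensities of 87.0, 267 and 261 in the WT arrays and 98.5, 177 and 321 in the KO arrays, with mouse 1 lowest in both groups. The second had 68.1, 80.8 and 62.1 in the WT arrays and 46.7, 84.0 and 69.1 in the KO arrays, and was the immunoglobulin probe set at which the mouse 1 arrays were not both lowest. *Igkv6-20* had 42.6, 101 and 87.8 in the WT arrays and 44.9, 88.0 and 77.9 in the KO arrays. The ranges of WT and KO overlapped for all of these.

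The remaining kappa segments, *Igkv4-55*, *Igkv5-43* and *Igkv8-30*, lay below the background level by their means of log2 intensities. *Igkv8-30* had 38.3, 107 and 59.0 in the WT arrays and 24.2, 112 and 64.1 in the KO arrays. *Igkv5-43* had 5.76, 29.2 and 23.8 in the WT arrays and 5.88, 10.1 and 34.2 in the KO arrays. *Igkv4-55* had 39.8, 69.0 and 58.5 in the WT arrays and 34.1, 65.2 and 110 in the KO arrays. At these levels a fold is compressed by the background. Over the 9 kappa probe sets the differences ran from -0.50 to 0.30 on the log2 scale.

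The T cell receptor V segments encode the variable parts of the receptor chains, and most were at the level of the sensory receptor genes. Across 8 of the 10 probe sets the intensities ran from 6.40 to 43.5 over all 6 arrays. The exceptions were *Trav13-5*, an alpha chain segment, and *Trbv1*, a beta chain segment. *Trav13-5* had intensities of 147, 123 and 160 in the WT arrays of mice 1, 2 and 3 and of 170, 211 and 175 in the KO arrays. All 3 KO arrays lay above all 3 WT arrays, with a log2 difference of 0.37 (standard error 0.14, unadjusted p = 0.038 and adjusted p = 0.69 from limma). *Trbv1* had 95.3, 80.3 and 77.9 in the WT arrays and 91.2, 91.5 and 83.7 in the KO arrays, and its ranges overlapped (log2 difference 0.08, standard error 0.11, adjusted p = 0.89).

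Among the dim T cell receptor segments, *Trgv1*, a gamma chain segment, had intensities of 24.0, 26.5 and 28.7 in the WT arrays and 24.8, 36.9 and 31.8 in the KO arrays. *Trav7n-5* had 30.0, 19.1 and 23.7 in the WT arrays and 27.9, 18.2 and 19.8 in the KO arrays. *Trgv1* was higher and *Trav7n-5* lower in the KO culture of each mouse, with overlapping ranges. *Trav14-1* had a probe set of 23.1, 20.2 and 18.2 in the WT arrays and 24.6, 21.0 and 22.2 in the KO arrays, higher in KO in each mouse. Its other probe set had 21.0, 7.56 and 14.5 in the WT arrays and 13.6, 13.3 and 11.5 in the KO arrays, with no shared direction. *Trav19* ran from 34.3 to 43.5, *Trdv2-2*, a delta chain segment, from 11.5 to 16.4, *Trav7d-4* from 10.5 to 16.1 and *Trav12-2* from 6.40 to 9.17.

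**Figure D2:**
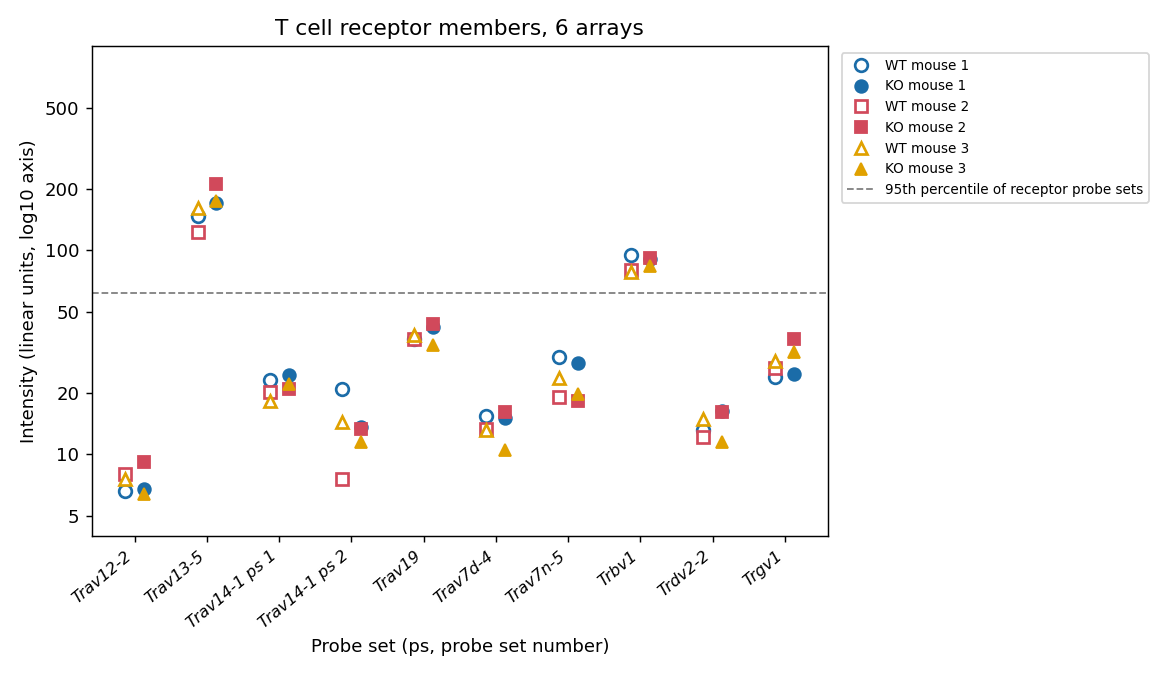
Intensity (log10 axis) of the 10 T cell receptor probe sets in each of the 6 arrays, with WT and KO marked for each mouse and the background level of 61.7 drawn as a line. *Trav13-5* and *Trbv1* lie above the line in every array and the other 8 lie below it.

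In the test of KO against WT over all 21640 probe sets with 1 symbol, 0 of the 22 passed an adjusted p of 0.05, where the background was 0% of the probe sets tested, and their adjusted p-values ran from 0.69 to 0.996. With the mouse as a block, the count was also 0 and the smallest adjusted p was 0.36. At an unadjusted p under 0.05, 1 probe set was higher in KO (*Trav13-5*, against a background of 5.14%) and 0 were lower (background 1.9%). Of the 1206 sensory receptor probe sets, 147 were higher and 3 lower at that threshold. With the mouse as a block the 22 gave the same counts, against backgrounds of 7.46% and 5.99%, and 212 of the sensory receptors were higher and 7 lower. The count of 1 fell to 0 with arrays centred on their medians, with low values set to a floor, and without WT array 1, WT array 2, KO array 2, KO array 3 or both arrays of mouse 2. It was 2 with array weights, without KO array 1 and without both arrays of mouse 1. Higher in the KO culture of all 3 mice were 4 of the 22, made up of 1 *Ighm* and 3 T cell receptor probe sets, where 21.3% of all probe sets did so. Lower in all 3 mice were 2 of the 22, *Igkv9-120* and *Trav7n-5*, where 17.4% did so. Both shares were under the background, the first only slightly. Among the 1206 sensory receptor probe sets, 429 were higher and 32 lower in KO in all 3 mice.

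The median log2 difference, KO minus WT, was 0.17 over the 3 *Ighm* probe sets, -0.11 over the 9 kappa probe sets and 0.08 over the 10 T cell receptor probe sets, beside 0.03 over all 21640 and 0.14 over the sensory receptors. Within mice 1, 2 and 3 the *Ighm* median was 0.42, -0.38 and 0.02. The kappa median was 0.03, -0.24 and 0.15, and the T cell receptor median 0.04, 0.26 and -0.21. No group had the same sign in all 3 mice. In mouse 2, 9 of the 12 immunoglobulin probe sets were lower in the KO than in the WT array, against 4 of 12 in mouse 1 and 4 of 12 in mouse 3. Of all 21640 probe sets, 10850, 10291 and 9466 were lower in the KO array of mice 1, 2 and 3. The precision differed by group. The median standard error was 0.90 for *Ighm*, 0.58 for kappa and 0.17 for T cell receptor probe sets, beside 0.13 for all probe sets. With the mouse as a block these fell to 0.12, 0.20 and 0.12, beside 0.11, so the spread behind the immunoglobulin errors lay mostly between mice.

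**Figure D3:**
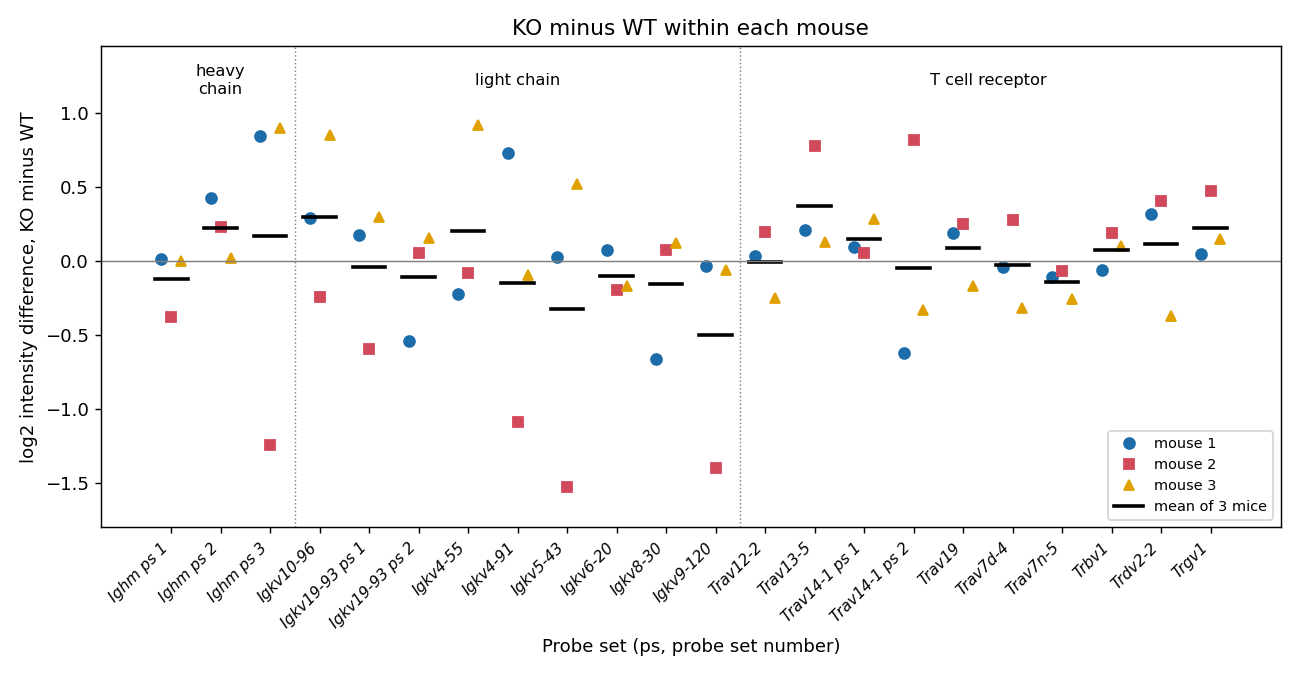
Log2 intensity difference, KO minus WT, of each of the 22 probe sets, with a marker for each mouse and a bar at the mean of the 3. *Trav13-5* stands above 0 in all 3 mice, and the markers of most immunoglobulin probe sets lie on both sides of 0.

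More of the probe sets were called between mice than between cultures. An F test between mice, with the treatment in the model, passed an adjusted p of 0.05 for 11 of the 22 probe sets, where 8.91% of all probe sets did. These were 3 of 3 *Ighm* probe sets, 7 of 9 kappa probe sets and 1 of 10 T cell receptor probe sets. All 10 immunoglobulin calls had mouse 1 lowest, against 5.56% of all probe sets called in that direction. The T cell receptor call, *Trav7n-5*, had mouse 1 highest (background 3.28%). Counted without a test, by a rule chosen after the values were seen, both arrays of mouse 1 lay under the other 4 in 11 of 12 immunoglobulin and 1 of 10 T cell receptor probe sets, where 14.5% of all probe sets did so.

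The second *Ighm* probe set was 5.76-fold higher in mouse 2 and 4.61-fold higher in mouse 3 than in mouse 1 (log2 differences 2.53 and 2.20, standard error 0.14 each, adjusted p = 3.1e-04 from limma's F test). The first was 3.45-fold and 2.65-fold higher (adjusted p = 0.0017 from the same F test). The third was higher by 4.32 and 4.04 on the log2 scale (standard error 0.49 each, adjusted p = 0.0054), but its mouse 1 values lay under the background level, so that these are differences of intensity and no measured fold. Mouse 1 was lowest at all 3 probe sets.

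Among the kappa segments with mouse 1 above the background level, *Igkv10-96* was 2.57-fold higher in mouse 2 and 2.23-fold higher in mouse 3 than in mouse 1 (adjusted p = 0.032 from limma's F test). The first *Igkv19-93* probe set was 2.35-fold and 3.13-fold higher (adjusted p = 0.014). In the other segments called, the mouse 1 arrays lay under the background level, so their ratios are of intensities, give no measured fold and are not compared between segments. The intensity of *Igkv4-91* was 9.95-fold higher in mouse 2 and 15.8-fold higher in mouse 3 than in mouse 1 (adjusted p = 0.0030 from limma's F test). That of *Igkv9-120* was 5.91-fold and 7.16-fold higher (adjusted p = 0.0060). That of *Igkv6-20* was 2.16-fold and 1.89-fold higher (adjusted p = 0.0073), and that of *Igkv8-30* 3.59-fold and 2.02-fold higher (adjusted p = 0.0079). *Igkv4-55* (adjusted p = 0.091) and the second *Igkv19-93* probe set (adjusted p = 0.26) did not pass. As medians, mice 2 and 3 lay above mouse 1 by 2.53 and 2.20 on the log2 scale for *Ighm* and by 1.36 and 1.16 for kappa segments. The T cell receptor medians were -0.06 and -0.19, beside -0.04 and -0.05 over all probe sets.

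These calls rest on mouse 1. Without its arrays, 0 of the 22 were called between the other mice, when 0.134% of all probe sets were. With all 34760 probe sets in the fit, 4 were called (the first 2 *Ighm* probe sets, *Igkv4-91* and *Igkv6-20*), when 2.19% of all were, and with low values set to a floor, 0 were called, when 0.037% of all were. Arrays of a mouse share its marrow, and differences between animals cannot be told apart from differences in how or when their cells were cultured and sorted.

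Markers of several cell types moved between the same mice. Over all probe sets, 8.91% were called between mice, and 14.5% had both mouse 1 arrays lowest. Of 11 B cell markers, 10 had both mouse 1 arrays lowest, and 8 were called between mice, 7 of them with mouse 1 lowest. *Cd79a*, the signalling chain of the B cell receptor, had intensities of 89.3 (WT) and 128 (KO) in mouse 1 and from 675 to 958 in the other 4 arrays. *Ms4a1*, which encodes CD20, had 75.8 and 60.4 in mouse 1 and from 331 to 609 elsewhere. The summed intensity of the B cell list was 2043 and 2353 in mouse 1 and from 4248 to 6301 in the other 4 arrays, and 10 of the 11 lay above the background level (the exception was *Cr2*). *Fcrla* went the other way, with 808 and 783 in mouse 1 and from 435 to 499 elsewhere. Of 6 plasma cell markers, 3 were called, among them *Jchain*, the joining chain of IgM and IgA, with 23.2 and 26.1 in mouse 1 and from 161 to 625 elsewhere.

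Other lineages moved too. Macrophage markers (8 of 9 called, mouse 1 lowest) summed to 5074 and 4514 in mouse 1 and to between 17238 and 23048 in the other 4 arrays. Of 10 neutrophil and 9 fibroblast markers, 7 and 6 were called. Of 14 pDC markers, 9 were called with mouse 1 highest, with sums of 49334 and 47918 in mouse 1 and from 20579 to 33522 elsewhere. Of 10 T cell markers, 2 were called, with sums from 1027 to 1299. The part of these cell types in the immunoglobulin values was not tested.

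**Figure D4:**
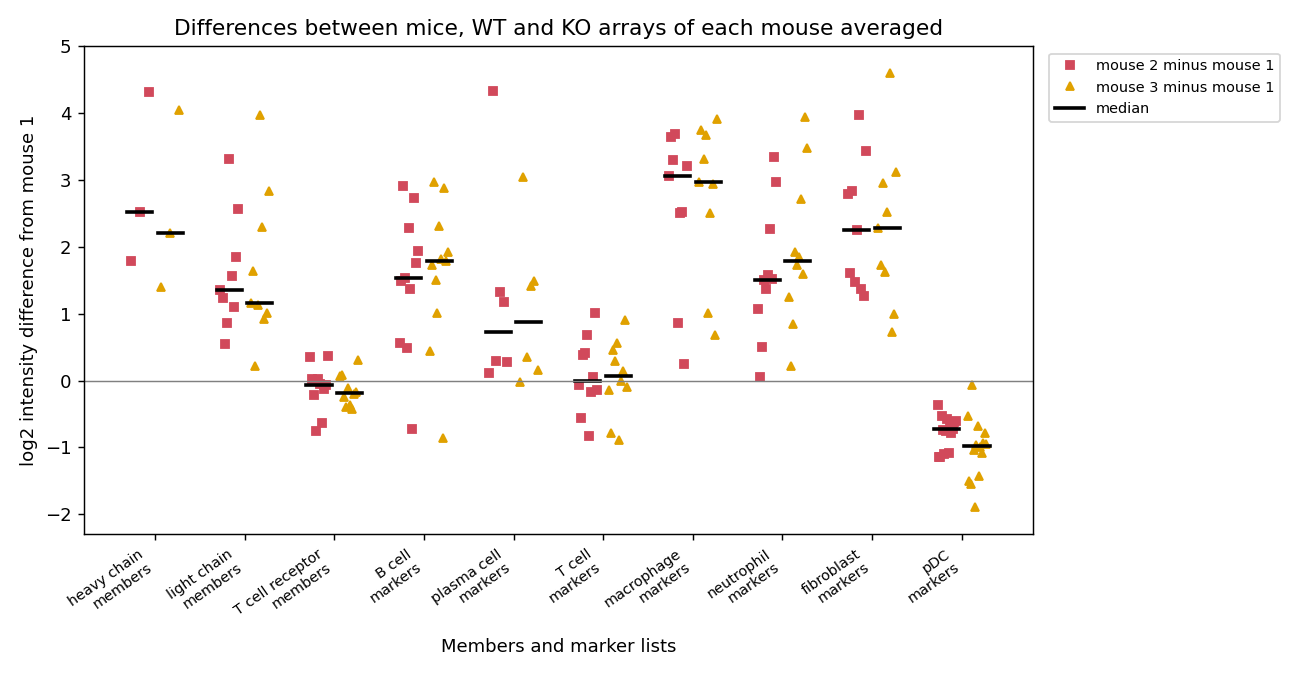
Log2 intensity difference of mice 2 and 3 from mouse 1, with the WT and KO arrays of each mouse averaged, for each member and each marker gene, with medians as bars. The medians of the *Ighm* and kappa probe sets lie above 0 with those of the B cell, plasma cell, macrophage, neutrophil and fibroblast markers, those of the T cell receptor probe sets and T cell markers lie near 0, and those of the pDC markers lie below it.

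Between the cultures of a mouse, the kappa and B cell sums moved the same way in mice 1 and 2 and opposite ways in mouse 3. In mouse 1 the kappa sum went from 551 (WT) to 581 (KO), and the B cell sum from 2043 to 2353. In mouse 2 the summed kappa intensity went from 1930 (WT) to 1361 (KO), and the B cell sum from 6301 to 4248. In mouse 3 the kappa sum went from 1508 (WT) to 1928 (KO), while the B cell sum went from 6080 to 4674. *Igkv10-96* alone went from 404 to 729 there, and 6 of the 9 kappa probe sets were higher in KO. Whether the kappa and B cell changes are linked was not tested. The plasma cell sum went from 1866 (WT) to 1335 (KO) in mouse 2 and from 1419 to 1322 in mouse 3. Of the 6 plasma cell markers, 5 were lower in KO in mouse 2 and 3 in mouse 3. *Jchain* went from 625 to 395 in mouse 2 and from 161 to 257 in mouse 3. With the mouse as a block, 5 of the 11 B cell markers were lower in KO at an unadjusted p under 0.05, as were 7 of 10 neutrophil, 7 of 9 fibroblast and 5 of 9 macrophage markers, while 4 of 14 pDC, 4 of 8 NK cell and 2 of 10 T cell markers were higher. Over all probe sets, 5.99% were lower and 7.46% higher by that measure. No marker passed after adjustment. The *Ighm* sum was 1232 and 1086 in mouse 2 and 863 and 960 in mouse 3.

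Genes that act on these loci were read from lists of the recombination and receptor pathways. Their counts stand beside backgrounds over all probe sets of 5.14% higher and 1.9% lower in KO at an unadjusted p under 0.05. With the mouse as a block the backgrounds are 7.46% and 5.99%, and 8.91% of all probe sets were called between mice. *Rag1*, a recombinase subunit, had intensities of 52.2, 27.6 and 25.1 in the WT arrays of mice 1, 2 and 3 and of 45.3, 41.5 and 27.5 in the KO arrays, below the background level in its mean (log2 difference 0.17, adjusted p = 0.92 from limma). *Rag2*, the other subunit, had 14.9, 17.2 and 19.6 in the WT arrays and 22.5, 18.7 and 17.9 in the KO arrays (0.19, adjusted p = 0.78). WT and KO ranges overlapped for both. By RT-qPCR the study itself reported higher *Rag* in tamoxifen-treated pDCs, also in the KO cultures before their RNA went onto the arrays. It put the absence of *Rag* from its own array list down to strict thresholds and cutoffs. *Dntt*, the polymerase that adds untemplated bases at V(D)J joins, was bright, with 2842, 1193 and 1069 in the WT arrays and 2295, 1576 and 1548 in the KO arrays (0.21, adjusted p = 0.92). For *Rag1* and *Dntt* both mouse 1 arrays were the highest, the opposite order to most immunoglobulin probe sets. Over all probe sets, 21.6% had that order, and *Rag2* did not. The F test between mice gave an adjusted p of 0.078 for *Rag1*, 0.053 for *Dntt* and 0.98 for *Rag2*. Of 17 probe sets for 14 recombinase and end joining genes, 0 passed an adjusted p of 0.05 between KO and WT and 0 an unadjusted p of 0.05. With the mouse as a block, 1 was higher (a probe set of *Hmgb2*, which bends DNA for the recombinase) and 1 lower (*Xrcc4*, an end joining factor) at an unadjusted p under 0.05.

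Of 13 genes of the B cell receptor and pre-B cell receptor, 2 passed an unadjusted p of 0.05, both higher in KO, and 0 passed after adjustment. They were *Vpreb2* (log2 difference 0.43) and *Igll1* (0.29), with limma's adjusted p = 0.69 for each, which encode the surrogate light chain that pairs with mu before a kappa chain is made. Neither passed the F test between mice (adjusted p = 0.90 and 0.79), whereas *Cd79a*, *Cd79b* and *Cd81* passed it. With the mouse as a block, the same 2 were higher and *Cd81* and *Cr2* were lower at an unadjusted p under 0.05. Of 12 T cell receptor and CD3 complex genes, 0 passed an unadjusted p of 0.05 between KO and WT. With the mouse as a block 2 did, *Cd3d* and *Cd4*, both higher in KO, and *Cd3d* lay below the background level. Of the 12 genes, 6 were called between mice, with *Fyn*, *Cd4*, *Cd8a* and *Cd8b1* highest and *Cd3g* and *Lcp2* lowest in mouse 1.

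Constant genes outside the choice of members followed the order of *Ighm* between mice. *Igha*, the constant gene of IgA, had a probe set with 112, 440 and 385 in the WT arrays and 131, 448 and 381 in the KO arrays. Its other probe set had 58.0, 547 and 361 in the WT arrays and 75.4, 486 and 310 in the KO arrays. *Ighg3*, the constant gene of IgG3, had 13.4, 158 and 57.5 in the WT arrays and 18.9, 43.4 and 63.7 in the KO arrays. Both arrays of mouse 1 were lowest at all 3, the *Igha* probe sets were called between mice, and none of the 3 passed an unadjusted p of 0.05 between KO and WT. Of 22 transcription factors that act at these loci, 10 were called between mice and 1 passed an unadjusted p of 0.05 between KO and WT. The latter was *Bcl11b*, a T lineage factor below the background level, higher in KO with a log2 difference of 0.29. With the mouse as a block, 2 were higher in KO (*Bcl11b* and *Spib*) and 2 lower (*Ebf1* and *Pax5*) at an unadjusted p under 0.05. No gene of these lists passed after adjustment in either fit. *Pou2af1*, *Ebf1* and *Pax5*, factors of the B lineage, and *Spi1*, a factor of myeloid and B cells, were lowest in mouse 1. *Tcf4*, *Spib*, *Irf8*, *Ikzf1*, *Bcl11a* and *Tcf12* were highest there.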

How the data were processed

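The deposited table holds intensities of Affymetrix Mouse Gene 1.0 ST probe sets on a linear scale. How the authors made these values is not stated in the sources used here. Similar column medians (69.0 to 72.9) leave it likely that the arrays had been normalized together. Values were log2-transformed. The platform table gives 21640 probe sets 1 symbol, 1321 several and 11799 none, and probe sets of a gene were kept apart. KO and WT arrays were compared in limma (lmFit, then eBayes; version 3.58.1 under R 4.3.3). Tests were two-sided, and p-values were adjusted over the 21640 by the Benjamini-Hochberg method at a threshold of 0.05. The steps were first tested on simulated data. Those lacked the general spread between mice of these arrays, so they could not test the KO and WT comparison under it. A second fit with treatment and mouse gave the F test between mice and the replicate block. The labels pair arrays by mouse. Deviations of same-mouse arrays from their group means correlated at 0.81, 0.51 and 0.67. The number of arrays limits the precision, as arrays have no read depth. Members, lists and rules were chosen with earlier results of these data known. Named were all *Ighm* probe sets, in each group the 4 brightest, the 4 highest and 4 lowest differences shared by all mice and the 3 largest F values, then *Rag1*, *Rag2*, *Dntt* and list members with the smallest p. Other genes named beside a count were chosen after their values were seen. No coordinates are given, as no build is named for the array.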

Additional observations from a re-analysis of the deposited data

How the results depend on the processing

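All 19 alternatives of the KO and WT comparison, the mouse as a replicate block among them, called 0 of the members, and the block changed no call. Of 762 single-gene values, 78 reversed in sign, none of them past the threshold. The *Ighm* median was -0.44 with array weights, and ran from -0.69 to 0.96 when 1 array or mouse was left out. The kappa median ran from -0.51 to 0.39. With array weights the log2 difference, KO minus WT, became -0.065 and -0.92 for *Ighm* probe sets 2 and 3, -0.063 for *Igkv10-96*, 0.086 for *Trav7d-4*, 0.47 for the second *Trav14-1* probe set, 0.019 for *Trav12-2* and -0.16 for the first *Igha* probe set. With a floor at the 20th percentile it was -0.11 for *Ighm* probe set 3 and 0.074 for *Igkv5-43*. After another quantile normalization it was -0.0019 for *Trav19* and 0.025 for the second *Igha* probe set. *Trdv2-2*, *Trav7d-4*, *Trav12-2*, the second *Trav14-1* probe set and *Rag2* lay at the floor in every array and had no value there. With 1 array or mouse left out, the difference ran from -0.69 to 0.38, from -0.62 to 0.96 and from -1.40 to 1.39 for the 3 *Ighm* probe sets, from -0.18 to 0.16 for *Trav7d-4*, from -0.33 to 0.023 for *Trav7n-5*, from -0.48 to 0.29 for the second *Trav14-1* probe set, from -0.17 to 0.12 for *Trav12-2* and from -0.028 to 0.36 for *Trdv2-2*. It ran from -1.51 to 0.29 for *Igkv9-120*, from -0.12 to 0.72 for *Igkv10-96*, from -0.57 to 0.39 and from -0.30 to 0.12 for the *Igkv19-93* probe sets, from -1.59 to 0.84 for *Igkv4-91*, from -0.21 to 0.64 for *Igkv4-55*, from -1.06 to 0.28 for *Igkv5-43*, from -0.66 to 0.45 for *Igkv8-30* and from -0.48 to 0.20 for *Igkv6-20*. It ran from -0.0057 to 0.35 for *Rag2*, from -0.038 to 0.50 for *Rag1*, from -0.052 to 0.65 for *Dntt*, from -1.35 to 0.43 for *Ighg3* and from -0.55 to 0.63 and from -0.98 to 0.78 for the *Igha* probe sets. The cause was not tested. Of the 11 probe sets called between mice, 0 remained called with the floor (0.037% of all probe sets) and 4 with all probe sets in the fit (2.19%). Leaving out both arrays of a mouse, an alternative chosen after seeing the data, gave counts from 0 to 11, which were 0 without mouse 1 (0.134% of all), 10 without mouse 2 (9.24%) and 11 without mouse 3 (6.37%). Without mouse 3, *Igkv5-43* lost its call (adjusted p = 0.064 from limma) and *Igkv4-55* gained one (0.023). *Trav7n-5* also lost its call after another quantile normalization (adjusted p = 0.075 from limma) and after centring. Over all probe sets, the adjusted threshold was passed by 108 without mouse 1 (0 of them members) and by 2 with the floor, against 0. The unadjusted calls were 1113 higher and 412 lower, 3095 and 1640 with array weights and 581 and 827 with arrays centred. The share of promoters with an octamer was not computed, as no member has a promoter in the table used. The number of arrays, 3 per group, limits what either fit could resolve.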

Other observations

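Another 43 probe sets carried several symbols, all of them segments or constant genes of these loci, and so name no gene alone. They were 4 of the heavy chain, 8 of the kappa, 2 of the lambda, 25 of the T cell receptor alpha, 1 of the beta and 3 of the gamma locus. Of the 43, 24 lay above the background level of the sensory receptors, beside 12509 of the 21640 probe sets with 1 symbol. Both arrays of mouse 1 were the lowest in 4 of 4 heavy chain, 7 of 8 kappa and 1 of 2 lambda probe sets, in 0 of 25 alpha and 0 of 1 beta probe sets and in 2 of 3 gamma probe sets. Over all probe sets with 1 symbol, 14.5% did so. The median log2 difference of mouse 2 from mouse 1 was 2.96 for the heavy chain, 2.43 for the kappa and -0.01 for the alpha probe sets. The median log2 difference, KO minus WT, over the 43 was 0.16, with a range from -0.20 to 0.58. No probe set of this kind was tested, and their segments overlap with those of the members.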
